A study of Mus musculus with 12 samples.

Results

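Heat shock chaperone genes were followed through mouse thymus libraries in which T cell leukemias were set against healthy tissue. The genes were taken by name: Hspa1a, Hspa1b, Dnajb1, Hsph1, Hspa8, Hsp90aa1, Hsp90ab1, Hspa5, Hsf1 and Hspb1, which are 10 of the 51734 gene symbols in the files. Polyadenylated RNA had been extracted with Trizol and read in pairs of 75 bases. The 9 tumor libraries are thymic T-ALL (T cell acute lymphoblastic leukemia), titled as Dox induced, whose genotype is tetracycline-inducible expression of IL-7Rα, the interleukin-7 receptor alpha chain. The 3 control libraries came from thymus of healthy mice. The labels give the strain F5 for all 12 libraries and no age. The promoter that drives the transgene is not given in the sources used here. Whether each library is a separate animal is not labelled. The p-values therefore reflect library-to-library spread alone, which may be partly technical.

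Heat shock proteins are chaperones that keep other proteins folded. Hspa8 and Hsp90ab1 are made at a high level in nearly every growing cell, while Hspa1a and Hspa1b are the stress-inducible HSP70 genes, nearly silent until heat, oxidants or misfolded protein free the transcription factor HSF1, the product of Hsf1. HSF1 then binds heat shock elements, which are alternating GAA and TTC blocks in the promoters of its targets. Hspa5, also called BiP, is the HSP70 of the endoplasmic reticulum and answers to the unfolded protein response instead. HSP40 proteins such as the product of Dnajb1 hand clients to HSP70, HSP110 proteins such as that of Hsph1 release its nucleotide, and Hspb1 encodes a small heat shock protein that holds unfolded chains.

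Promoter sequences are shown first, since they carry the elements named above. RefSeq promoter windows (build GRCm38.p6, 300 bases from 250 before to 50 after the start site) were found for 6 members: Hspa1a, Hspa1b, Dnajb1, Hsph1, Hspa5 and Hspb1. Hspa8, Hsp90aa1, Hsp90ab1 and Hsf1 had no entry. A script searched both strands for a pair of heat shock blocks, GAANNTTC or TTCNNGAA, each of which is its own reverse complement, and for the ER stress element, which is CCAAT and CCACG with any 9 bases between them. At least 1 block pair was present in 15.1% of 32851 windows of this length, and the ER stress element in 0.119%. In the stretches below, capitals mark these matches. All lie upstream of the RefSeq start site, and those of Hsph1 and Hspa5 are kept to 30 bases because exons of longer GENCODE transcripts overlap them.
Hspa1a (chr17:34972237-34972336, minus strand): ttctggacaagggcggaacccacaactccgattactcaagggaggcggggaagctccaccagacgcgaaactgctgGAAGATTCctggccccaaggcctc
Hspa1b (chr17:34959319-34959418, minus strand): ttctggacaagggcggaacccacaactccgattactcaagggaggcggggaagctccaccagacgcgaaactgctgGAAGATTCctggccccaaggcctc
Hsph1 (chr5:149636352-149636381, minus strand): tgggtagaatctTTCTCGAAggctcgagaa
Hspb1 (chr5:135887769-135887868, plus strand): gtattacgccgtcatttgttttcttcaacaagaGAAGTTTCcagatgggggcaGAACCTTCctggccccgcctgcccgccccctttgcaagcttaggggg
Hspa5 (chr2:34772020-34772049, plus strand): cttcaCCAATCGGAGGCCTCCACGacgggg
The Hspa1a and Hspa1b stretches are identical, and their 300-base windows differ at 4 positions. The 2 Dnajb1 windows held neither block pair, which says only that these letters are not in these windows. Hspb1 held 2 pairs, and Hspa5 held the ER stress element and no block pair. Each Hsph1 window held 3 pairs: 1 upstream, marked above, and 2 that lie after the start site and overlap each other.

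Several members have close copies in the genome, which limits how firmly reads can be placed. Of the 31-base words of the main Hspa1a transcript, 29.9% occur in no transcript of another gene, and 63.8% are shared with Hspa1b (31.9% and 67.6% the other way round). Both genes have a single exon. Hspa1a lies on chromosome 17 from 34969190 to 34972156 and Hspa1b on the same chromosome from 34956436 to 34959238, both on the minus strand (mm10). A further annotated gene that overlaps Hspa1a, Gm20481, was at 0 in all 12 libraries. Gm10501, an antisense gene, shares 12.1% of the words of Hspa1a and 11.1% of those of Hspa1b, and was counted in every library. It was highest in tumor 5, at 2.43 CPM (61 counts), where Hspa1a and Hspa1b together had 28 counts. The low value of the 2 genes in tumor 5 may therefore depend on how reads were divided with Gm10501. For Hspa8 (chromosome 9, 40800984 to 40810087, plus strand) 7.99% of words are its own, because other annotated genes hold the same words, 85.6% in the processed pseudogene Gm15459. Gm15459 was at 16.5 and 11.2 CPM in controls 2 and 3 and at most 2.01 CPM in any other library, so the Hspa8 values of those controls depend on how reads were divided. Hsp90aa1 and Hspb1, with 29.2% and 34.6% of words of their own, carry the same limit. Dnajb1, Hsph1, Hspa5 and Hsf1 had 99.4% to 100% of words of their own and carry no such limit.

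The libraries differed in composition, and partly along the groups. Controls held between 8132930 and 12019700 estimated counts, and tumors between 11617600 and 34769700. Mitochondrial genes took 31.6% to 69.3% of counts in tumors 1 to 6 and 0.0949% to 11.1% in the other 6 libraries, while 12 satellite-like gene models took 0.115% to 2.43% and 29.8% to 59.4%. The 95% Wilson intervals of these shares reach at most 0.0321 percentage points to either side and cover counting error only. Olfactory and vomeronasal receptor genes, used here as the background, had a median density of 0.642 to 0.808 CPM (estimated counts per 1000000) per kilobase in the controls and tumors 7 to 9. In tumors 1 to 6 it was between 0 and 0.431. The 10 markers of T cells and thymocytes, among them Cd3e, Lck and Thy1, summed to between 1469 and 1827 CPM in tumors 1 to 6, between 62.2 and 119 in tumors 7 to 9 and between 47.9 and 93.5 in the controls. By their sum, markers of the labelled thymus were thus low in the last 2 sets. Not every marker followed the sum. Ptcra was at 1.78 to 2.37 CPM in tumors 1, 3, 4 and 5, below the 2.58 to 4.14 of the controls. Rag1 was at 1.58 to 2.86 CPM in tumors 1, 3 and 4, below the 2.97 to 4.64 of the controls. Both were above the controls in tumors 2 and 6, and Rag1 also in tumor 5. All CPM values use TMM factors (trimmed mean of M-values). In bulk tissue, fewer cells of a type and less RNA per cell cannot be told apart.

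Hspa1a and Hspa1b, which encode near-identical inducible HSP70 proteins, differed more among tumors 1 to 6 than any other member. Hspa1a was at 22.9, 8.35, 21.8, 111, 0 and 4.89 CPM in tumors 1 to 6, at 2.14, 14.7 and 2.26 in tumors 7 to 9, and at 1.47, 1.14 and 1.68 in controls 1 to 3. Hspa1b was at 39.4, 10.3, 39.5, 302, 1.11 and 2.38 CPM in tumors 1 to 6, at 1.62, 21.0 and 2.44 in tumors 7 to 9, and at 1.09, 0.956 and 1.44 in the controls. Tumor 4 was the highest for both genes, and tumors 1, 3 and 8 came next. Tumor 5, the most deeply sequenced library, had no Hspa1a count at all and 28 counts of Hspa1b, so the groups overlapped for both genes. If the division of reads between the 2 genes is taken as given, a count of 0 in tumor 5 allows up to 0.119 CPM (3 counts). On that division Hspa1a was at least 929.7-fold higher in tumor 4 than in tumor 5, and at least 40.9-fold higher in tumor 6. The 28 counts placed on Hspa1b could in part belong to Hspa1a, so these folds are not firm limits. Summed over both genes, tumor 4 was 371-fold higher than tumor 5.

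Because the pair shares most of its sequence, the sum of both genes is the firmer measure. It was 413 CPM in tumor 4, 62.4 in tumor 1, 61.3 in tumor 3, 18.6 in tumor 2, 7.27 in tumor 6 and 1.11 in tumor 5. It was 35.7 CPM in tumor 8, against 3.75 in tumor 7, 4.70 in tumor 9 and 2.59 ± 0.512 (SD, n = 3) in the controls. In the controls both genes lay below the receptor gene background, Hspa1a at 0.527 to 0.754 times and Hspa1b at 0.470 to 0.684 times its median density. No level above background was thus detectable for either gene in the controls. In tumor 8, whose mitochondrial share was 9.02% and satellite-like share 40.8%, Hspa1a reached 8.14 and Hspa1b 12.3 times that background, while in tumors 7 and 9 they lay between 0.790 and 1.13 times. The density of Hspa1b was 2.89 times that of Hspa1a in tumor 4, 1.83 in tumor 1, 1.92 in tumor 3 and 0.518 in tumor 6, a split that rests on the minority of reads that tell the genes apart.

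Dnajb1, the HSP40 partner of inducible HSP70 (chromosome 8, 83608193 to 83612653, plus strand), did not follow the pair. It was at 14.4, 14.0, 9.61, 13.8, 12.1 and 22.3 CPM in tumors 1 to 6, at 2.95, 4.76 and 3.77 in tumors 7 to 9, and at 2.53, 2.98 and 3.04 in the controls. All of tumors 1 to 6 lay above the highest control, and the highest Dnajb1 value fell in tumor 6, where the pair was low. Tumor 4, with 413 CPM of the pair, did not stand out for Dnajb1. In the controls Dnajb1 lay at 1.18 to 1.36 times the background density.

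**Figure D1:**
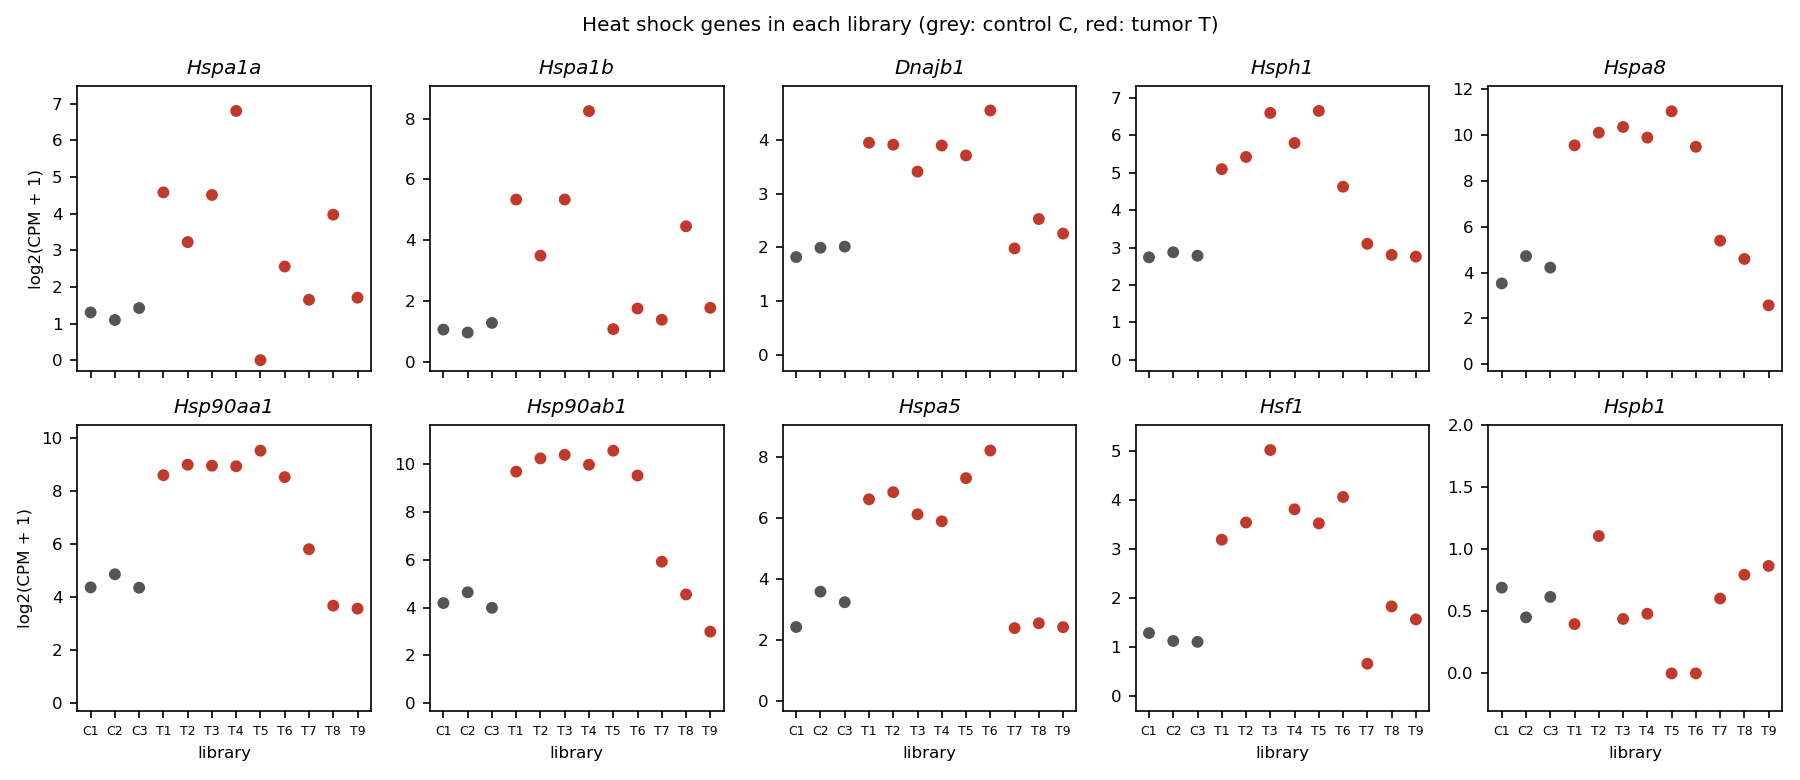
Level of each of the 10 heat shock genes, as log2(CPM + 1), in controls 1 to 3 (grey) and tumors 1 to 9 (red), 1 point per library. Hspa8, Hsp90aa1 and Hsp90ab1 form a high plateau in tumors 1 to 6, whereas Hspa1a and Hspa1b peak in tumor 4 (111 and 302 CPM) and are lowest among the tumors in tumor 5.

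The constitutive cytosolic chaperones were abundant across tumors 1 to 6 and spanned a narrower range there than Hspa1a and Hspa1b. Hspa8, the HSP70 of unstressed cells, was at 750, 1101, 1307, 948, 2101 and 718 CPM there, at 41.1, 23.1 and 4.94 in tumors 7 to 9, and at 10.5, 25.3 and 17.6 in the controls. Hsp90ab1, the constitutive HSP90 (chromosome 17, 45567775 to 45573271, minus strand), was at 813, 1191, 1321, 991, 1489 and 726 CPM in tumors 1 to 6, at 59.2, 22.3 and 6.97 in tumors 7 to 9, and at 17.2, 23.8 and 14.9 in the controls. Both were highest in tumor 5, the library with the least Hspa1a and Hspa1b, and the highest tumor among 1 to 6 was 2.92 times the lowest for Hspa8 and 2.05 times for Hsp90ab1. Only tumor 7 of tumors 7 to 9 lay above the highest control for either gene. In the controls Hspa8 was 7.49 to 17.7 times and Hsp90ab1 7.93 to 13.1 times the background density, so both were measurable there, unlike Hspa1a and Hspa1b.

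Hsp90aa1, the more stress-responsive HSP90 (chromosome 12, 110690605 to 110702728, minus strand), resembled Hsp90ab1. It was at 383, 504, 491, 484, 729 and 364 CPM in tumors 1 to 6, at 54.4, 11.6 and 10.7 in tumors 7 to 9, and at 19.4, 27.7 and 19.2 in the controls. Its highest value among tumors 1 to 6 was 2.00 times its lowest, the narrowest range of the 10 genes. Tumor 4 stood in the middle of that range.

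Hspa5, the chaperone of the endoplasmic reticulum (chromosome 2, 34771970 to 34777547, plus strand), had an order of its own. It was at 97.1, 114, 68.8, 58.5, 158 and 296 CPM in tumors 1 to 6, at 4.27, 4.89 and 4.39 in tumors 7 to 9, and at 4.41, 11.1 and 8.50 in the controls. Tumor 6 was the highest and tumor 4 the lowest of tumors 1 to 6, which for tumor 4 is the opposite end from Hspa1a and Hspa1b. No member of tumors 7 to 9 exceeded the highest control.

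Hsph1, an HSP110 with block pairs in its promoter windows (chromosome 5, 149614287 to 149636376, minus strand), was at 33.1, 41.7, 95.5, 54.3, 99.2 and 23.6 CPM in tumors 1 to 6, at 7.57, 5.97 and 5.76 in tumors 7 to 9, and at 5.67, 6.33 and 5.87 in the controls. Its highest tumors were 5 and 3, not 4. Hsf1, the regulator itself (chromosome 15, 76477422 to 76501913, plus strand), was at 8.14, 10.7, 31.5, 13.1, 10.5 and 15.7 CPM in tumors 1 to 6, at 0.578, 2.55 and 1.96 in tumors 7 to 9, and at 1.44, 1.18 and 1.15 in the controls. Tumor 3 had the most Hsf1 RNA, and tumor 4 lay among the rest, so the RNA level of the regulator did not rank the libraries as Hspa1a and Hspa1b did. Control levels of Hsf1 were 0.780 to 1.02 times the background density.

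Hspb1, the small heat shock protein (chromosome 5, 135887919 to 135889563, plus strand), was barely counted in any library. It had 3, 9, 3, 3, 0 and 0 counts in tumors 1 to 6, 9, 17 and 24 in tumors 7 to 9, and 18, 10 and 13 in the controls. The last 6 libraries lay at 0.651 to 1.53 times the background density. Tumor 2 lay at 3.77 times and tumor 4 at 2.30 times that density, which rest on the 9 and 3 counts above. Hspb1 has 2 block pairs in its promoter, yet tumor 4, highest for Hspa1a and Hspa1b, gave 3 counts.

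Compared per kilobase of effective length over tumors 1 to 6, the median levels ranked Hspa8 first at 556 CPM per kilobase, then Hsp90ab1 at 465, Hsp90aa1 at 182, Hspa5 at 43.3, Hsph1 at 16.7, Hspa1b at 9.45, Hsf1 at 6.44, Hspa1a at 5.39, Dnajb1 at 4.94 and Hspb1 at 0.463. Hsp90aa1 lay wholly below Hsp90ab1, Hspa5 wholly below Hsp90aa1, and Hspb1 wholly below Dnajb1. The ranges of all other neighbours in this order overlapped, although Hspa8 exceeded Hsp90ab1 in 6 of 6 libraries. Among tumors 1 to 6, Hspa1b exceeded Hspa5 in tumor 4 alone, at 115 against 24.1 CPM per kilobase.

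The ratio of inducible to constitutive chaperones within a library does not depend on how libraries are scaled. Summed per kilobase, Hspa1a, Hspa1b and Dnajb1 amounted to 3.57%, 1.03%, 2.02%, 16.6%, 0.256% and 1.29% of Hspa8, Hsp90ab1 and Hspa5 in tumors 1 to 6. The extremes, tumors 4 and 5, were 64.9-fold apart, and the median log2 ratio was -5.95 with an SD of 2.00 (n = 6). With Dnajb1 alone as the inducible part the extremes were 4.15-fold apart, and with Hspa1a and Hspa1b alone, an alternative added after the data were seen, 697-fold. The wide range of the ratio was thus that of Hspa1a and Hspa1b, and Dnajb1 alone gave a narrow one. The tumor 5 end of the wide range rests on 28 counts of the pair, which may depend on how reads were divided with Gm10501. As a share of Hspa8 alone, the pair was 30.1% in tumor 4, 5.70% in tumor 1, 3.22% in tumor 3, 1.16% in tumor 2, 0.683% in tumor 6 and 0.0372% in tumor 5. It was 106% in tumor 8, 65.2% in tumor 9 and 6.21% in tumor 7. In the controls it was 5.62% to 16.5%. In tumors 7 and 9 and the controls the pair itself was at or below about the background, while Hspa8 was low, at 4.94 CPM in tumor 9. No p is given for these ratios, since the genes were chosen with earlier results known.

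**Figure D2:**
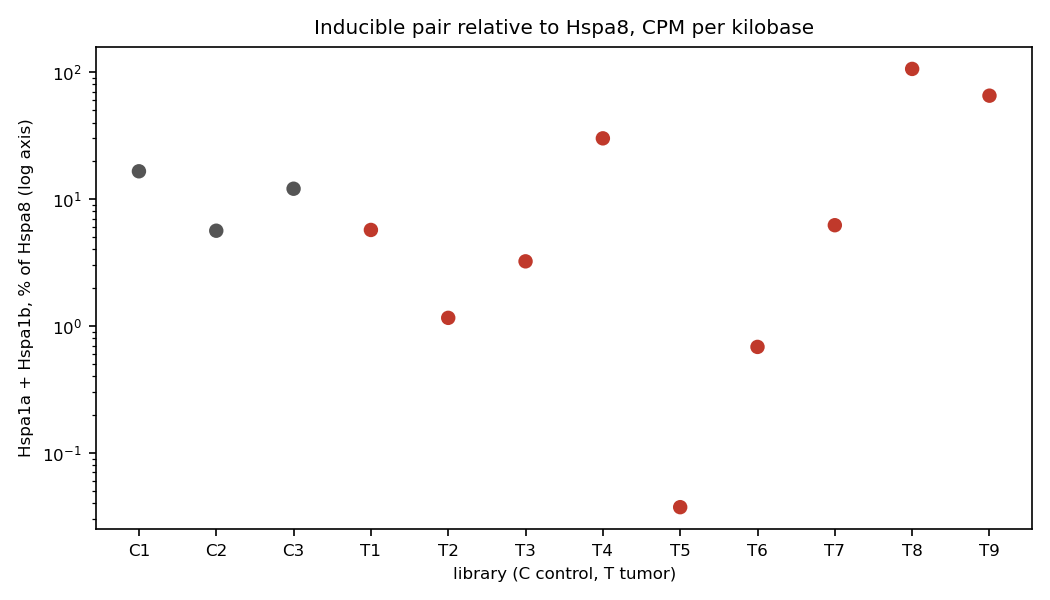
Sum of Hspa1a and Hspa1b as a percentage of Hspa8, both in CPM per kilobase, in each library on a log axis (grey controls, red tumors). Tumors 4, 8 and 9 reach 30.1%, 106% and 65.2%, and tumor 5 falls to 0.0372%. In tumor 9 the pair was at about the background and Hspa8 was low.

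**Figure D3:**
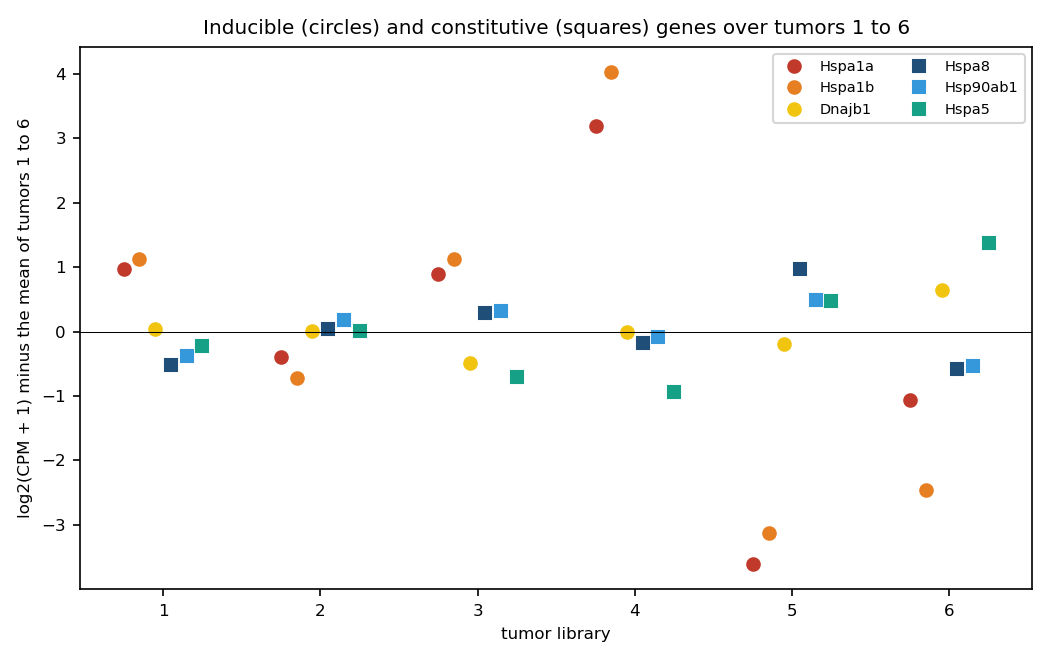
Deviation of log2(CPM + 1) from its mean over tumors 1 to 6 for 3 inducible genes (circles) and 3 constitutive genes (squares), 1 point per library. Hspa1a and Hspa1b lie far above their mean in tumor 4 and far below it in tumor 5, while Dnajb1 and the constitutive genes stay closer to theirs.

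The same contrast appeared when every gene was ranked by its spread. Over tumors 1 to 6 the SD of log2(CPM + 1) was 2.29 for Hspa1a and 2.65 for Hspa1b, against a median of 0.495 for 7226 protein-coding nuclear genes with a mean of at least 10 CPM. Of those genes, 0.498% had a larger SD than Hspa1a and 0.125% a larger one than Hspa1b. Dnajb1 (0.373), Hsp90aa1 (0.356) and Hsp90ab1 (0.405) lay below that median, and Hspa8 (0.575) and Hsf1 (0.642) a little above it. Hsph1 (0.814) and Hspa5 (0.843) were wider, with 13.4% and 12.3% of genes wider still.

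**Figure D4:**
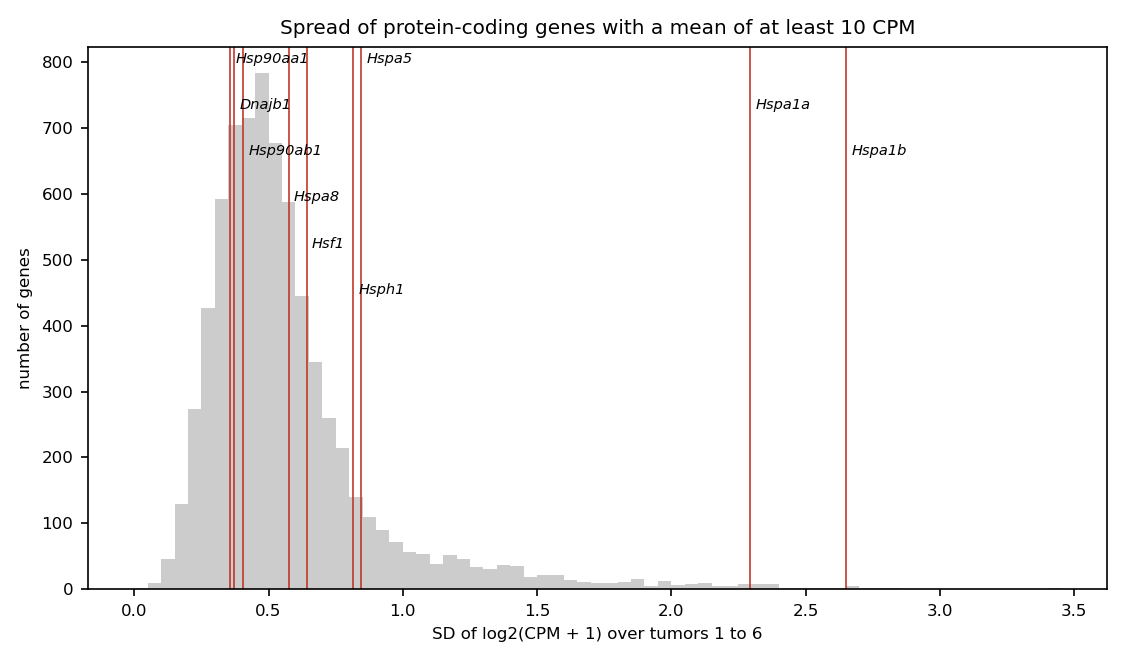
Histogram of the SD of log2(CPM + 1) over tumors 1 to 6 for 7226 protein-coding nuclear genes with a mean of at least 10 CPM, with red lines at the 9 members in this set (Hspb1 is below 10 CPM). Hspa1a and Hspa1b stand in the far right tail at 2.29 and 2.65, and Dnajb1 at 0.373 is left of the peak.

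Some other measures were also high in tumor 4, and whole marker lists did not follow the pair. Col1a2, a collagen gene, was at 101, 57.4, 40.1, 181, 40.8 and 10.4 CPM in tumors 1 to 6, highest in tumor 4 as the pair was. It made up most of the 191 CPM that the 4 fibroblast markers summed to in tumor 4. The other fibroblast markers were highest elsewhere: Col1a1 at 18.0 CPM in tumor 3 (6.06 in tumor 4), Pdgfra at 10.5 in tumor 2 (3.43 in tumor 4) and Dcn at 10.1 in tumor 2 (0.659 in tumor 4, the lowest of the 6). In the controls the fibroblast sum was 28.5 to 34.9 CPM.

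Of the B cell markers, Ms4a1 was at 4.76, 5.26, 2.25, 9.10, 1.07 and 1.88 CPM in tumors 1 to 6, highest in tumor 4, and at 11.6, 13.1 and 12.3 in the controls. Cd79a and Cd79b were highest in tumors 3 and 2. The 4 erythroid markers summed to 9.36 CPM in tumor 4 and 2.37 to 6.58 in tumors 1 to 3, 5 and 6, but Alas2 was highest in tumor 6. The mitochondrial share was 69.3%, 66.7%, 48.5%, 66.5%, 41.3% and 31.6% in tumors 1 to 6. The receptor gene background was 0.431, 0.418, 0.151, 0.239, 0 and 0.0230 CPM per kilobase in the same libraries. No marker of these lists was at 0 in all 6 of them. The part of these measures in the pattern of Hspa1a and Hspa1b was not tested.

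Immediate-early genes, which respond quickly to growth signals, did not share a single order over tumors 1 to 6. Every gene of the list except Jun and Fos was lowest in tumor 5 among these libraries, as Hspa1a and Hspa1b were. Fosb, Ier3 and Atf3 were at 0 CPM there. No gene of the list was highest in tumor 4. Jun was at 212, 31.6, 1.42, 29.0, 11.8 and 475 CPM there, highest in tumor 6, where Hspa1a and Hspa1b together had 7.27. Egr1 was at 25.3, 14.4, 41.7, 22.7, 2.79 and 25.3 CPM, highest in tumor 3 and lowest in tumor 5. Fos and Nr4a1 were chosen after their values were seen. Fos resembled Jun, with 68.4 CPM in tumor 6, 14.0 in tumor 4 and 1.78 in tumor 3. Nr4a1 was at 9.41, 18.7, 27.2, 26.9, 1.07 and 14.0 CPM, high in tumors 3 and 4 and lowest in tumor 5, partly as the pair was.

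The question of the design is which genes set tumors apart from healthy thymus. Of the 10 members, 7 were higher in each of tumors 1 to 6 than in the highest control, namely Dnajb1, Hsph1, Hspa8, Hsp90aa1, Hsp90ab1, Hspa5 and Hsf1. That pattern was met by 19.9% of all 40484 genes tested. No member had all 9 tumors above the highest control (1.6% of genes did). In tumors 7 to 9, Hspa1a and Hspa1b were the 2 members with all 3 libraries above the highest control, against 7.02% of genes.

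No member passed in edgeR's quasi-likelihood test of 9 tumors against 3 controls with Benjamini-Hochberg adjustment over 40484 genes. That test called 0% of genes higher and 0.00494% lower. At an unadjusted p below 0.05 it held 9 of 10 members, against 18.0% of all genes, and DESeq2 called 9 members higher (27.7% of 15360 genes higher, 0.378% lower). The log2 fold change of tumor over control was 5.49 ± 1.79 (SE) for Hspa8, 5.36 ± 1.70 for Hsp90ab1, 3.98 ± 1.36 for Hsp90aa1 and 3.53 ± 1.31 for Hspa5. It was 5.39 ± 1.84 for Hspa1b, 3.92 ± 1.57 for Hspa1a and 1.97 ± 0.66 for Dnajb1. Without tumor 4 it was 3.70 for Hspa1b and 2.79 for Hspa1a. Hsf1 had 3.12 ± 0.98, Hsph1 2.83 ± 0.98 and Hspb1 -0.06 ± 1.03. The adjusted p was 0.128 for 7 of these genes, 0.142 for Hspa5, 0.170 for Hspa1a and 0.974 for Hspb1. The median over the 10 members was 3.73, and over all genes -0.45. That median of all genes moved to -0.72 with RLE factors and to -1.83 with library totals, where Hspa8 was at 2.98, Hspa1b at 2.50 and Dnajb1 turned to -0.14.

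Among libraries of like background density, Hspa1a and Hspa1b came first. In tumors 7 to 9 against the controls, edgeR called no member and 0.0247% of genes in each direction, with 3 of 10 members and 9.04% of genes at an unadjusted p below 0.05. Hspa1b had the largest log2 fold change of the 10 there, 2.82 ± 0.85 (adjusted p = 0.387), followed by Hspa1a with 2.13 ± 0.68 (adjusted p = 0.410). Tumor 8 held 14.7 and 21.0 CPM of these genes, and tumors 7 and 9 between 1.62 and 2.44 CPM of either. Hspa5 was at -0.84 ± 0.32 (adjusted p = 0.489), and Hspa8 at 0.37 ± 0.62 (adjusted p = 0.900). Without tumors 7 to 9, edgeR called 9 of the 10 members higher, all but Hspb1, where 19.6% of genes were higher and 20.3% lower. The fold changes then ran from 2.11 for Dnajb1 to 5.78 for Hspa8, and the adjusted p from 3.14e-05 for Hsp90ab1 to 0.0393 for Hspa1a. With TMM over protein-coding nuclear genes in the same libraries the Hspa1a call was lost (adjusted p = 0.0606). With the replicate number as a block in controls 1 to 3 and tumors 1 to 3, 9 of the 10 were called higher, where 22.5% of genes were higher and 5.07% lower. Without tumors 7 to 9, all tumors have a low background density and all controls a high one, so composition and group cannot be told apart. The 3 comparisons share their control libraries.

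**Figure D5:**
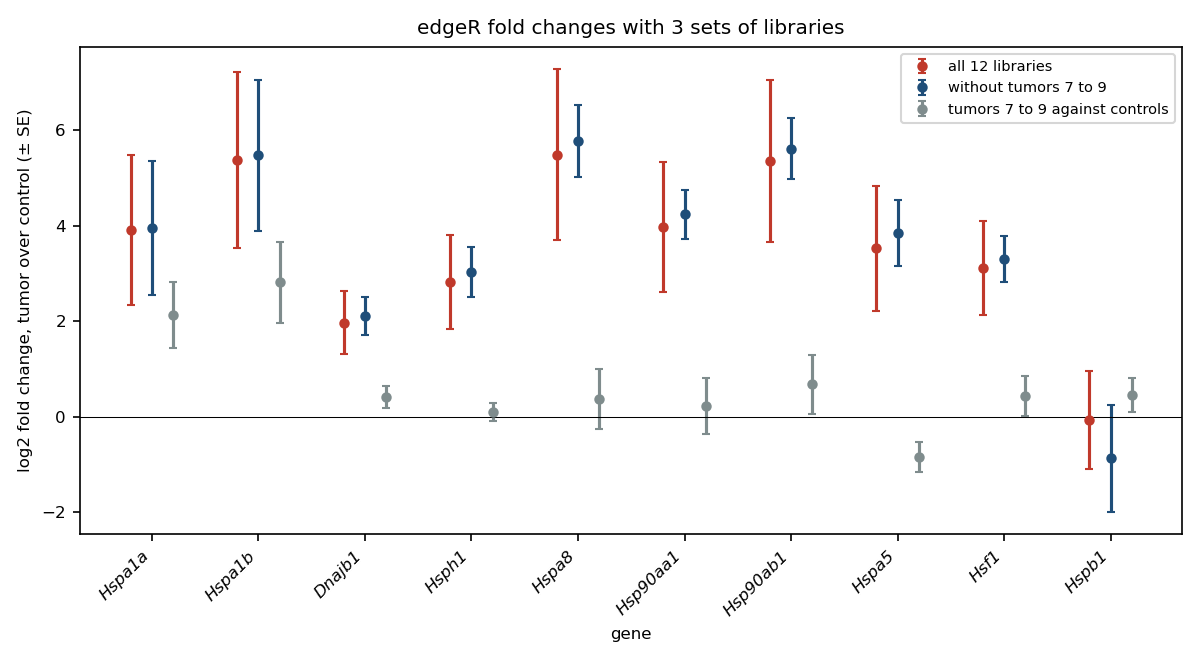
edgeR log2 fold change of tumor over control with its standard error for each member, from all 12 libraries (red), without tumors 7 to 9 (blue) and for tumors 7 to 9 against the controls (grey). Hspa8 is at 5.49 in red and 0.37 in grey, and Hspa1b at 5.39 and 2.82; the 3 sets share the same controls.

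Transcript forms were counted for the members with introns. Retained-intron transcripts took 41.3% to 57.2% of Hsph1 counts in the controls. Their share was 47.2% to 50.6% for tumors 7 to 9 but 20.3% to 27.6% for tumors 1 to 6, and the widest 95% Wilson interval among these reached 8.44 percentage points to either side. Those of Hsp90ab1 took 6.95% to 10.4% in the controls and 5.72% to 15.2% for tumors 7 to 9, but 0.979% to 5.37% in tumors 1 to 6. For Hspa8 the control range of 13.9% to 34.3% overlapped the 8.90% to 34.2% of tumors 1 to 6. The Hsp90ab1 ranges lie close: tumor 7 had 5.72% (95% Wilson interval 4.49% to 7.35%) and tumor 4 had 5.37% (4.89% to 5.91%). The ranges also overlapped for Hsp90aa1, with 10.1% to 20.4% in the controls against 11.8% to 28.8% for tumors 1 to 6, and for Hspa5, with 9.14% to 11.7% against 3.43% to 32.1%. Of these 5 genes, Hsph1 had the widest gap between the 6 libraries of high background density and tumors 1 to 6, from 27.6% to 41.3%. Hspa1a and Hspa1b have a single exon and no such form. The Wilson intervals of the retained-intron shares cover counting error only. They leave out how reads were divided among transcripts and the spread between libraries.

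The wider chaperone network was read from 8 further lists holding 95 distinct genes, some in 2 lists. In the test of all 12 libraries edgeR called 0 of the 95 in either direction, with 65 (68.4%) at an unadjusted p below 0.05, beside 18.0% of all genes. Without tumors 7 to 9 it called 71 higher and 3 lower, beside the 19.6% and 20.3% of all genes. The HSP90 and cochaperone list had 14 of 14 members higher in that comparison, the chaperonins 10 of 10, the ER chaperones and unfolded protein response genes 18 of 19, and the HSP40 family 11 of 13. Hsp90b1, the HSP90 of the endoplasmic reticulum, had 11.7 ± 2.40 CPM (SD, n = 3) in the controls, between 189 and 587 in tumors 1 to 6, and between 4.01 and 18.1 in tumors 7 to 9. Cct2, a subunit of the cytosolic chaperonin, had 5.91 ± 1.40 CPM (SD, n = 3), then 157 to 354 and 2.54 to 7.28. Canx, the lectin chaperone calnexin, had 6.29 ± 0.689 CPM (SD, n = 3), then 171 to 351 and 4.77 to 15.9. Tumor 4 was the highest library for none of these 3 genes.

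Fewer members were called in the other lists without tumors 7 to 9. The HSP70 and HSP110 family had 5 of 9 higher and 1 lower, small HSP and BAG genes 5 of 13 higher and 2 lower, HSF family genes and regulators 5 of 9 higher, and immediate-early genes 7 of 12 higher. The 3 lower genes, chosen after their values were seen, were Hspa12b, Hspb7 and Hspb11, with log2 fold changes of -1.53, -2.25 and -1.06, against -1.29 for the median of all genes. Hspa4, an HSP110, had 6.48 ± 1.12 CPM (SD, n = 3) in the controls, between 120 and 290 in tumors 1 to 6, and between 4.60 and 13.1 in tumors 7 to 9. Bag1, a nucleotide release factor of HSP70, had 1.34 ± 0.367 CPM (SD, n = 3), then 25.6 to 73.2 and 1.30 to 3.98. Dnaja1, an HSP40 of the cytosol, had 8.94 ± 0.962 CPM (SD, n = 3), then 78.8 to 228 and 7.51 to 10.5. Vcp, an ATPase that extracts proteins for degradation, had 6.67 ± 2.19 CPM (SD, n = 3), then 88.1 to 236.9 and 4.67 to 7.96. Bag1 was highest in tumor 4, at 73.2 CPM, as the Hspa1a and Hspa1b pair was, while Hspa4, Dnaja1 and Vcp were highest in tumor 5. Among list genes with a mean of at least 10 CPM, the median SD of log2(CPM + 1) over tumors 1 to 6 was 0.431 to 0.580 in the 7 chaperone lists and 1.59 in the immediate-early list of 6 such genes. Hspa1a and Hspa1b, at 2.29 and 2.65, were thus wider than each chaperone list's median. A wide range was not theirs alone: Jun, of the immediate-early list, ran from 1.42 to 475 CPM there, beside 1.11 to 302 for Hspa1b.

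In tumors 7 to 9 against the controls edgeR called none of the 95 genes, with 12 (12.6%) at an unadjusted p below 0.05, near the 9.04% of all genes. The list medians ran from -0.43 for the chaperonins to 0.31 for the immediate-early genes, beside -0.01 for all genes. Hspa1a and Hspa1b, at 2.13 and 2.82, lay above the highest single gene of those lists, which was at 0.85.

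Genes whose levels over tumors 1 to 6 were most like the mean of Hspa1a, Hspa1b and Dnajb1 were sought among 7217 others. The 5 nearest by Pearson's r of log2(CPM + 1) over these 6 libraries were Rnf213, Fam3c, Shisa5, Ptpn12 and Gimap8, with r from 0.94 to 0.95. With so many genes and 6 libraries that share a depth and composition pattern, such values are a description only. Rnf213, a large ubiquitin ligase, was at 159, 91.2, 145, 341, 60.0 and 125 CPM in tumors 1 to 6. Gimap8, a GTPase of lymphocytes, was at 16.2, 8.22, 15.7, 29.4, 6.33 and 5.77 CPM. The mean of Hspa1a, Hspa1b and Dnajb1 itself followed Hspa1a (r = 0.99) and Hspa1b (r = 0.98), but not Dnajb1 (r = -0.14). Tumor 4 was the highest for each of the 5 genes, which follows largely from how they were chosen. None of the 5 spanned as wide a range as Hspa1b.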

How the data were processed

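The 10 genes, the lists and the tests were chosen with earlier results of these data known. Estimated counts and TPM were deposited per transcript, beside lengths, per the file headers. Kallisto, FastQC and mm10 appear in the submitters' processing notes, without versions. Estimated counts of 128622 transcripts were summed by symbol and rounded. One count stood for 0.0342 to 0.132 CPM after TMM scaling. CPM per kilobase used the effective length of the protein-coding transcript with the most counts. Tumors and controls were compared with edgeR 4.0.16 (quasi-likelihood, filterByExpr, threshold 0.05), whose standard errors were taken as the fold change over the root of F. The test was checked on simulated counts. DESeq2 1.42.0 and limma 3.58.1 on log2(TPM + 1) and log2(TPM + 0.1) were alternatives, beside other scalings, filters, left-out libraries, and the background density as a covariate. Words of 31 bases were matched in GENCODE M21 transcripts. Named genes were the 10 members, from each list the called genes or, with none called, a pair chosen by top mean CPM over tumors 1 to 6, and the 5 nearest in pattern among genes of at least 10 CPM. Not every gene of these pairs was described above. In tumors 1 to 6, Hspa9 was at 86.8 to 209 CPM, Dnajc2 at 93.6 to 206 and Fkbp5 at 48.1 to 296. Bag6 was at 23.2 to 77.4 CPM there, Ep300 at 69.8 to 202 and Cct4 at 127 to 255. Marker lists for macrophages, thymic epithelium, endothelium and erythroid cells were also summed (in tumors 1 to 6: 10.7 to 56.9, 3.01 to 18.0, 173 to 1150 and 2.37 to 9.36 CPM; in the controls: 8.61 to 11.8, 20.2 to 26.3, 22.3 to 69.1 and 3.32 to 12.4). The endothelium sum was nearly all Pecam1 (172 to 1150 CPM in tumors 1 to 6); Cdh5 and Kdr were lower there (0.0627 to 2.05 and 0.251 to 5.14 CPM) than in the controls (2.19 to 2.96 and 6.39 to 8.37).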

Additional observations from a re-analysis of the deposited data

Results flagged for a closer look

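In 11 sets of 9 tumor values tested for a single library far from the rest, 3 were marked, and chance marks about 1 in 20. Tumor 4 stood apart from the 8 other tumors for Hspa1a, at 111 CPM, and for Hspa1b, at 302 CPM. These 2 genes share most of their sequence, so they are not separate observations. Tumor 3 stood apart for Hsf1, at 31.5 CPM.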

How the results depend on the processing

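With all 12 libraries, 0 members were called in either direction by edgeR under TMM, RLE, library totals, TMM over protein-coding nuclear genes, both other filters and the background covariate, in tumors 7 to 9 against controls, and with any 1 library left out (0 to 0 members higher and 0 to 0 lower, 0 to 0 list genes higher and 0 to 0 lower). Members called higher numbered 9 with DESeq2, 9 without tumors 7 to 9 and 8 when TMM over protein-coding nuclear genes was added to the latter, an alternative chosen after the data were seen. List genes called higher numbered 55, 71 and 61 in the same order; 3 were lower without tumors 7 to 9, and 8 with that scaling. Limma on log2(TPM + 1) called 1 member and 31 list genes lower, and on log2(TPM + 0.1) 1 and 28. The member was Hspb1.

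Among all genes, 4257 were higher and 58 lower with DESeq2, 125 and 32091 with log2(TPM + 1), 114 and 30997 with log2(TPM + 0.1), 7564 and 7822 without tumors 7 to 9, 5843 and 17810 there with TMM over protein-coding nuclear genes, and 9 and 9 in tumors 7 to 9 against controls. Leaving out 1 library gave 0 to 0 higher and 0 to 3 lower: 0 without control 2 or 3 or tumor 1, 2, 4 or 7, and 3 without control 1 or tumor 8.

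Controls 1 to 3 and tumors 1 to 3 share only a number: the correlations of same-numbered deviations were -0.033, 0.0457 and 0.0146, none over 0.1, and 1 of 3 controls correlated best with its own number. With the replicate block in these 6 libraries 9 members were higher, 73 list genes higher and 1 lower, and 8085 genes higher and 1824 lower; with no replicate block, added after the data were seen, these were 9, 75, 3, 8709 and 3566.

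Directions turned for Dnajb1 (-0.14 with library totals, -0.50 and -0.86 on log2(TPM + 1) and log2(TPM + 0.1)), Hsph1 (-0.44 and -0.50 on those 2 scales), Hspa5 (-0.066 and -0.15 on them, -0.84 in tumors 7 to 9 against controls), Hsf1 (-0.025 and -0.18) and Hspa1a (-0.090 on log2(TPM + 0.1)). Hspb1, at -0.06, turned to 0.16 with the replicate block, 0.30 without it, 0.12 without tumor 5, 0.11 without tumor 6, 0.46 in tumors 7 to 9 against controls and 0.96 with the background covariate. Hspa8, Hsp90aa1, Hsp90ab1 and Hspa1b kept their direction in every setting run, but not their size: over the settings Hspa8 ran from 0.37 to 6.00, Hsp90aa1 from 0.23 to 4.45, Hsp90ab1 from 0.68 to 5.96 and Hspa1b from 0.60 to 5.56. Hspa8 was at 2.98 with library totals, 3.42 with the background covariate and 0.70 on log2(TPM + 1); Hspa1b was at 2.50, 4.55 and 0.60, and at 3.70 without tumor 4, where Hspa1a was at 2.79. The cause was not tested. The median log2 ratio of inducible to constitutive genes stayed within 1 SD of -5.95 under all alternatives, and leaving out 1 tumor gave -6.28 to -5.63. Low counts limit Hspb1 and, in the controls, Hspa1a, Hspa1b, Dnajb1 and Hsf1.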
